A study of Mus musculus with 6 samples.

Results

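The small leucine-rich proteoglycans of the dermis and versican were examined in wound tissues of db/db mice. They were 9 listed genes, Dcn, Bgn, Lum, Fmod, Ogn, Prelp, Aspn, Podn and Vcan, each matched to a single Ensembl identifier among the 33184 in the deposited table. The list was set by gene name, with earlier results of these data known. Transcripts had been measured by RNA-seq in 6 libraries, 3 of them labelled NC and the other 3 SFRP2-siRNA. All mice were of the C57BL/Ks strain and carried the dbdb genotype, a leptin receptor defect that gives obesity and diabetes, and all received a full-thickness back wound of 6 mm. At dpi1 (day 1 after injury) the skin around the wound received control siRNA (NC) or siRNA against SFRP2, and wound tissue was taken at dpi4 according to the protocol, although sample titles carry day 3. The age of the mice, and whether a library held tissue of a single mouse, were not given in the sources used here. P-values therefore measure the spread between these libraries.

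Small leucine-rich proteoglycans are secreted proteins built of leucine-rich repeats, most of them carrying chondroitin, dermatan or keratan sulfate chains. They sit on collagen fibrils, set fibril width and spacing, and bind growth factors such as TGF-beta. Versican belongs to another family, the large chondroitin sulfate proteoglycans that bind hyaluronan, and is a component of the loose provisional matrix of wounds. In skin both families are made mainly by fibroblasts.

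Each library rested on 42900000 to 47100000 reads (rounded), inferred from the steps between low values, and the groups overlapped in depth. Values are FPKM, reads scaled by gene length and by the depth of the library. Sfrp2, the siRNA target, had 11.6, 40.6 and 14.1 FPKM in NC 1, 2 and 3 and 50.6, 54.6 and 55.2 FPKM in those labelled SFRP2-siRNA 1, 2 and 3. The target was thus higher where the label says it was targeted, so every direction is given for libraries by their label and not for a loss of Sfrp2. The paper reports less SFRP2 protein in siRNA-treated wounds by immunofluorescence, a measure of protein and not of the RNA in these libraries. Mitochondrially encoded mRNAs took 16.8% to 34.5% of the summed FPKM in NC and 11.5% to 15.9% in those labelled SFRP2-siRNA. Fibroblast, macrophage and Schwann cell markers were also higher in the latter, with summed levels that did not overlap between groups. The part of these differences in the results was not tested.

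All 9 transcripts were detected in every library. The lowest read number behind any value was 333, for Fmod in NC 2, and the highest was 43198, for Bgn in the library labelled SFRP2-siRNA 1. Mates of a pair appear to have been counted singly, so these reads are not independent molecules. Gene-level values do not separate the splice forms of versican, which differ in their chondroitin sulfate regions.

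The levels spanned a wide range. In NC, Bgn had a mean of 112 ± 32.9 FPKM, Dcn 89.0 ± 14.7, Prelp 79.2 ± 8.30 and Lum 69.9 ± 22.5 (SD, n = 3), and the ranges of these neighbours overlapped. Aspn and Ogn followed at 26.3 ± 9.97 and 20.7 ± 7.07 FPKM and overlapped each other. Podn had 8.97 ± 2.03 FPKM and Vcan 5.03 ± 2.74, again with overlap, and Fmod was the lowest at 2.53 ± 0.38 (SD, n = 3). These values placed Bgn above 97.7% and Fmod above 37.6% of the 16005 genes tested, by the mean over all libraries. Within every library the order of the lower 5 was Aspn, Ogn, Podn, Vcan and Fmod, whereas the upper 4 changed places. In the libraries labelled SFRP2-siRNA, Dcn and Bgn led with 149 ± 9.07 and 146 ± 18.3 FPKM, ranges that overlapped, and Prelp stood below Lum in all 3 at 69.6 ± 24.7 (SD, n = 3). Aspn and Ogn were the other neighbours in that order whose ranges overlapped in this group. Dcn, Bgn, Lum and Prelp together made up most of the FPKM of the 9 genes in each library, with Prelp taking between 10.1% and 24.8%.

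**Figure D1:**
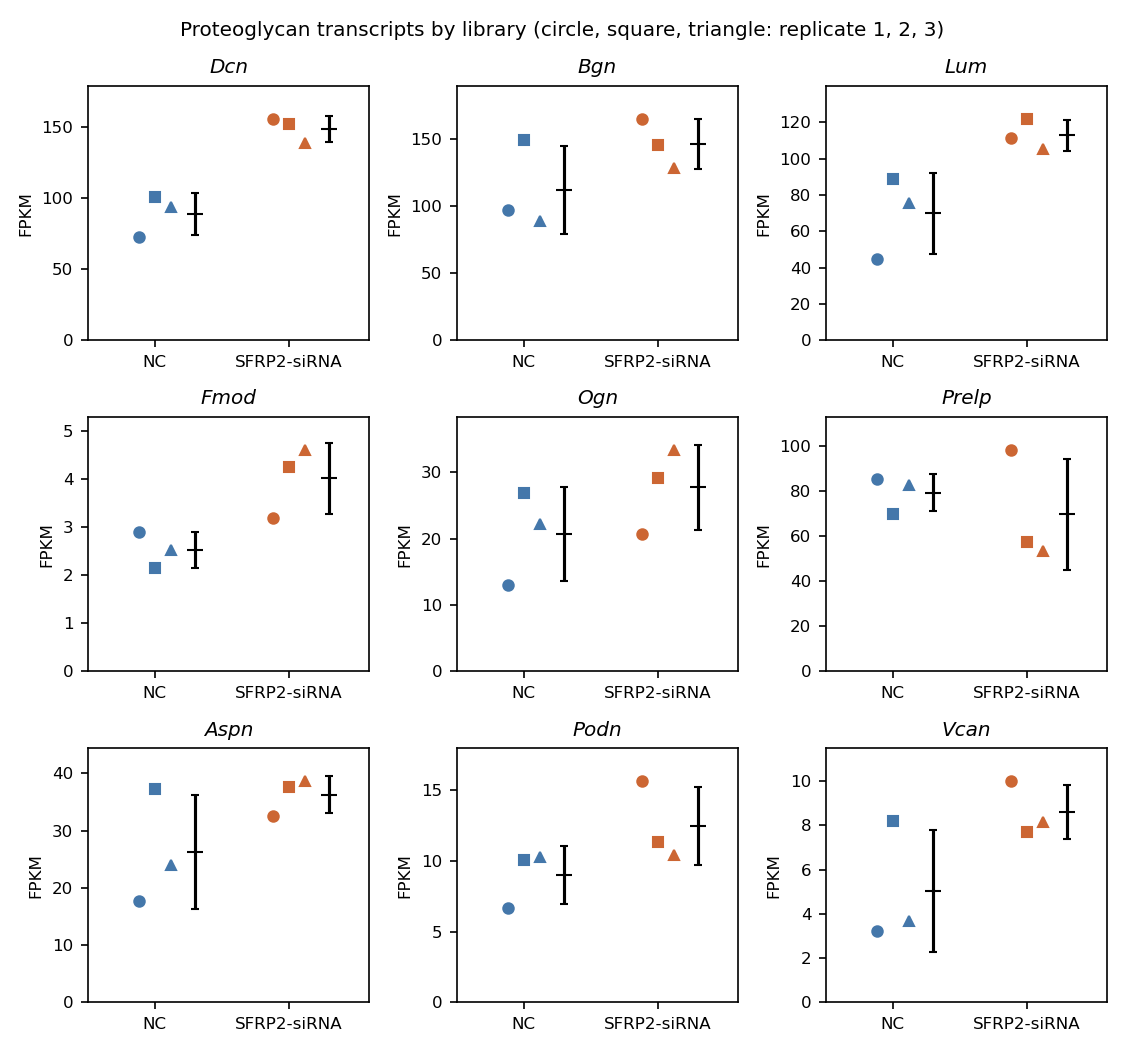
FPKM of the 9 transcripts, a panel each with its own linear axis from 0. Symbols are single libraries, and black marks are the mean and SD of 3 libraries. Dcn, Lum, Fmod and Podn have groups that do not overlap, while NC 2 reaches into the other group for Bgn, Ogn, Aspn and Vcan.

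The promoters of the members showed no common base composition. RefSeq windows of 250 bases before the transcription start (GRCm38.p6) were at hand for 7 of the 9 genes, all but Dcn and Lum. Their G and C content ran from 30.0% in Aspn to 78.0% in the upstream window of Podn, against a median of 52.4% over all 32851 windows. Motifs were searched on both strands by their letters, TATAAA for the TATA box, GGGCGG for the GC box and CCAAT for the CCAAT box. The others were CANNTG for the E-box, TGANTCA for the AP-1 site and GGAATG for the site of TEAD factors. Of all windows, 12.4% held the TATA box, 32.7% the GC box, 33.9% the CCAAT box, 66.2% an E-box, 6.75% the AP-1 site and 12.6% the TEAD site. TATAAA was found in Aspn and Ogn, both on chromosome 13, and GGGCGG in Bgn, Vcan and Podn. GGAATG was found in Ogn and TGANTCA in no member. Such letter matches are no evidence of a bound factor. The windows of Fmod, whose groups did not overlap, of Aspn, the richest in A and T, and of Bgn and Vcan, which hold GC boxes, are shown to let these compositions be compared, with motif letters in capitals. Fmod lies at chr1:134037004-134037253, plus strand, Aspn at chr13:49544193-49544442, plus strand, Bgn at chrX:73483351-73483600, plus strand and Vcan at chr13:89742513-89742762, minus strand.
Fmod: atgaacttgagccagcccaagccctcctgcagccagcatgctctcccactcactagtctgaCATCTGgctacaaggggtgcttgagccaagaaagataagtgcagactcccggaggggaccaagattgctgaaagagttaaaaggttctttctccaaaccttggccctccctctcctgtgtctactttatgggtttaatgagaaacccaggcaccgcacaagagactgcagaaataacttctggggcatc
Aspn: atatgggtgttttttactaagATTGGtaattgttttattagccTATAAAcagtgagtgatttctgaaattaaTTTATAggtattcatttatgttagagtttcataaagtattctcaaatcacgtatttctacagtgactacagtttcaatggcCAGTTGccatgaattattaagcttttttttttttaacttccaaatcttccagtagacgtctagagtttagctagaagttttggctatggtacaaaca
Bgn: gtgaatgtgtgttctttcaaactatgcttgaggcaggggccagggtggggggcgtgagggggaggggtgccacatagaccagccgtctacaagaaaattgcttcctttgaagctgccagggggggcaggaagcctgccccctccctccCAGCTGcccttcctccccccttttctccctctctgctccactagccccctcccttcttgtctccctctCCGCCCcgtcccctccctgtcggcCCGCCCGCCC
Vcan: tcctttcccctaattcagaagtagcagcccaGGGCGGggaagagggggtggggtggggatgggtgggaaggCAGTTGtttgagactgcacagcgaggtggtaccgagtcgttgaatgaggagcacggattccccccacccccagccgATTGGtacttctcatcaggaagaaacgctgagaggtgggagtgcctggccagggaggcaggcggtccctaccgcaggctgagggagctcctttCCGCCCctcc

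The question of the comparison was whether wound transcripts differ after SFRP2 siRNA. Of the 9 means, 8 were higher under the label SFRP2-siRNA and that of Prelp was lower. The groups did not overlap for 4 members, Dcn, Lum, Fmod and Podn, all higher, where 13.9% of all genes tested were higher without overlap. At an unadjusted limma p under 0.05 there were also 4 higher members, Dcn, Lum, Fmod and Vcan, against 6.72% of all genes. No member passed the threshold of an adjusted p under 0.05 and an absolute log2 fold change above 1, and 0% of all genes did, the smallest adjusted limma p being 0.518. With DESeq2 at this threshold the paper does report differentially expressed genes in wound tissue at dpi4, more of them lower than higher. The median log2 fold change of the members was 0.50 on the log2(FPKM + 1) scale, beside 0.13 over all genes tested, of which 71.8% were higher. These counts depended on how libraries were scaled. With median-of-ratios scaling, which moved the median of all genes to 0.0046, Dcn and Lum alone kept groups without overlap, beside 5.54% of all genes.

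Dcn encodes decorin, a dermatan sulfate proteoglycan that coats collagen fibrils and binds TGF-beta. It had 72.5, 100.8 and 93.8 FPKM in NC 1, 2 and 3 and 155.6, 152.3 and 138.5 FPKM in those labelled SFRP2-siRNA 1, 2 and 3. The lowest of the latter stood well above the highest NC library. The log2 fold change was 0.75 (SE 0.18, 95% interval 0.31 to 1.18). Its adjusted limma p was 0.518. An exact permutation test gave p = 0.1, the lower limit for groups of 3.

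Lum encodes lumican, a keratan sulfate proteoglycan that regulates collagen fibril assembly. NC 1, 2 and 3 had 45.04, 89.0 and 75.6 FPKM, and libraries labelled SFRP2-siRNA 1, 2 and 3 showed 111, 122 and 105 FPKM. NC 1 was the low library of its group, and the groups did not overlap. For Lum the log2 fold change was 0.74 (SE 0.27, 95% interval 0.10 to 1.37), with an adjusted limma p of 0.518. Without NC 1 it was 0.45.

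Bgn encodes biglycan, the closest relative of decorin, which can also act on Toll-like receptors when released from matrix. It had 97.4, 149.7 and 88.9 FPKM in NC 1, 2 and 3 and 165, 146 and 128 FPKM in those labelled SFRP2-siRNA 1, 2 and 3. NC 2 lay above 2 of the 3 libraries of the other group. The log2 fold change was 0.41 (SE 0.24, 95% interval -0.16 to 0.99), with an adjusted limma p of 0.544, and an increase of the size seen for Dcn lies within this interval. It was 0.27 without NC 3 and 0.64 without NC 2.

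Fmod encodes fibromodulin, which binds collagen at the same region as lumican. The 3 NC libraries had 2.90, 2.15 and 2.53 FPKM, and those labelled SFRP2-siRNA 3.19, 4.25 and 4.597 FPKM. The nearest libraries, NC 1 and SFRP2-siRNA 1, differed little, yet the groups did not overlap. The log2 fold change was 0.50 (SE 0.16, 95% interval 0.13 to 0.88), with an adjusted limma p of 0.518. On this scale the change of so low a gene is understated, and with a pseudocount of 0.1 it was 0.64.

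Aspn and Ogn encode asporin, which lacks a typical glycosaminoglycan attachment site, and mimecan. Aspn had 17.7, 37.2 and 24.0 FPKM in NC and 32.6, 37.5 and 38.6 FPKM in those labelled SFRP2-siRNA. Ogn had 13.02, 26.9 and 22.3 FPKM against 20.7, 29.1 and 33.3 FPKM. In both, NC 1 was the lowest library and the groups overlapped. The log2 fold changes were 0.51 (SE 0.26) for Aspn and 0.43 (SE 0.30) for Ogn, with adjusted limma p-values of 0.534 and 0.573. Without NC 1 they were 0.26 and 0.15.

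Podn encodes podocan, a member of the family with its own cysteine pattern. NC 1, 2 and 3 had 6.63, 10.04 and 10.3 FPKM, and libraries labelled SFRP2-siRNA 1, 2 and 3 showed 15.6, 11.3 and 10.4 FPKM. The groups did not overlap, but the gap between NC 3 and SFRP2-siRNA 3 was small beside the spread of either group. For Podn the log2 fold change was 0.43 (SE 0.22, 95% interval -0.085 to 0.95), with an adjusted limma p of 0.527. It was 0.25 without NC 1 and 0.27 without SFRP2-siRNA 1.

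Vcan, the gene of versican, had 3.22, 8.18 and 3.68 FPKM in NC 1, 2 and 3 and 9.995, 7.68 and 8.14 FPKM in those labelled SFRP2-siRNA 1, 2 and 3. NC 2 fell inside the other group's range, far above NC 1 and NC 3. The log2 fold change was 0.76 (SE 0.30, 95% interval 0.040 to 1.47), with an adjusted limma p of 0.518 and an exact permutation p of 0.3. Without NC 2 it was 1.104, and groups then did not overlap for 7 of the 9 members, all but Ogn and Prelp. For all genes the share higher without overlap then was 25.8%.

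**Figure D2:**
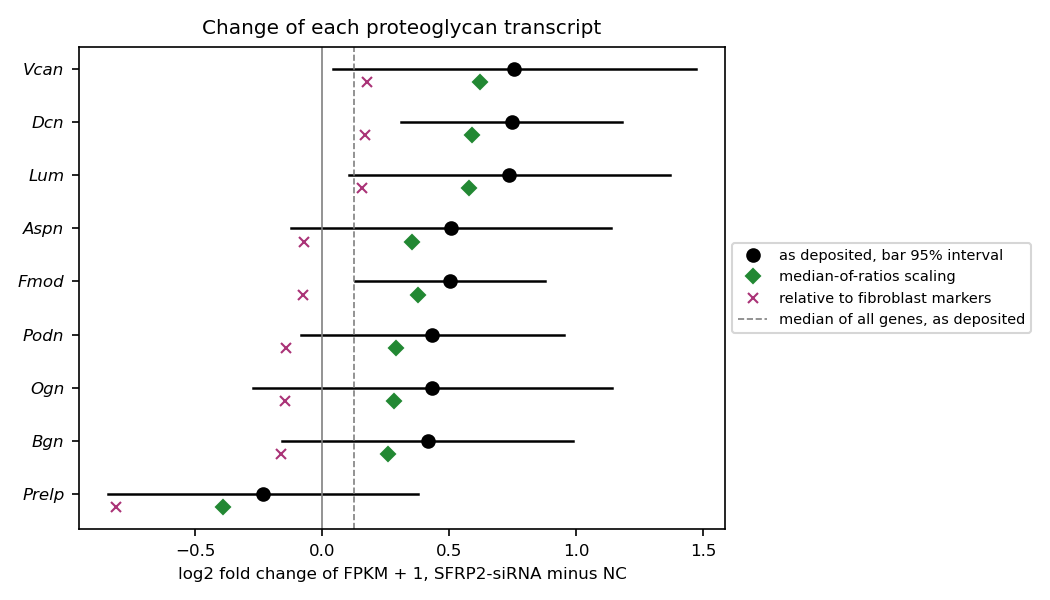
Log2 fold change of FPKM + 1 of each member, libraries labelled SFRP2-siRNA minus NC, with 95% limma intervals as bars. Diamonds use median-of-ratios scaling and crosses are relative to 11 fibroblast markers, under which Bgn, Fmod, Ogn, Aspn and Podn change sign and the median of all genes is -0.45. Prelp is below 0 on all 3 scales.

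Prelp, which encodes a heparin-binding member of the family found next to basement membranes, went against the others. It had 85.2, 69.7 and 82.6 FPKM in NC 1, 2 and 3 and 98.0, 57.3 and 53.5 FPKM in those labelled SFRP2-siRNA 1, 2 and 3. SFRP2-siRNA 1 was the highest of all 6 libraries, and the other members of its group were the lowest. The log2 fold change was -0.23 (SE 0.26, 95% interval -0.84 to 0.38), with an adjusted limma p of 0.684. Without SFRP2-siRNA 1 it was -0.50 and the groups did not overlap, while it was -0.12 without SFRP2-siRNA 2 and -0.073 without SFRP2-siRNA 3.

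Prelp was also read beside adipocyte markers. Summed over Adipoq, Plin1, Cidec, Fabp4, Lep, Plin4 and Cfd, the markers had 2150, 1758 and 2035 FPKM in NC and 2460, 1331 and 925 FPKM in those labelled SFRP2-siRNA. For each 100 FPKM of these markers there were 3.97, 3.97 and 4.06 FPKM of Prelp in NC 1, 2 and 3, and 3.98, 4.30 and 5.78 FPKM in SFRP2-siRNA 1, 2 and 3. The sum put the 6 libraries in the same order as Prelp, but Fabp4 made up 41.0% to 60.8% of it, and 0 of the 7 markers alone gave that order. SFRP2-siRNA 3 was the lowest library for 7 of 7. All 7 adipocyte markers had a lower mean log2 value in those labelled SFRP2-siRNA, by a median of -0.19, and none had groups without overlap. That median was 0.079 without SFRP2-siRNA 3 and -0.54 without SFRP2-siRNA 1. The comparison of Prelp with adipocyte markers was chosen after the values had been seen, and the part of fat tissue in the Prelp values was not tested.

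**Figure D3:**
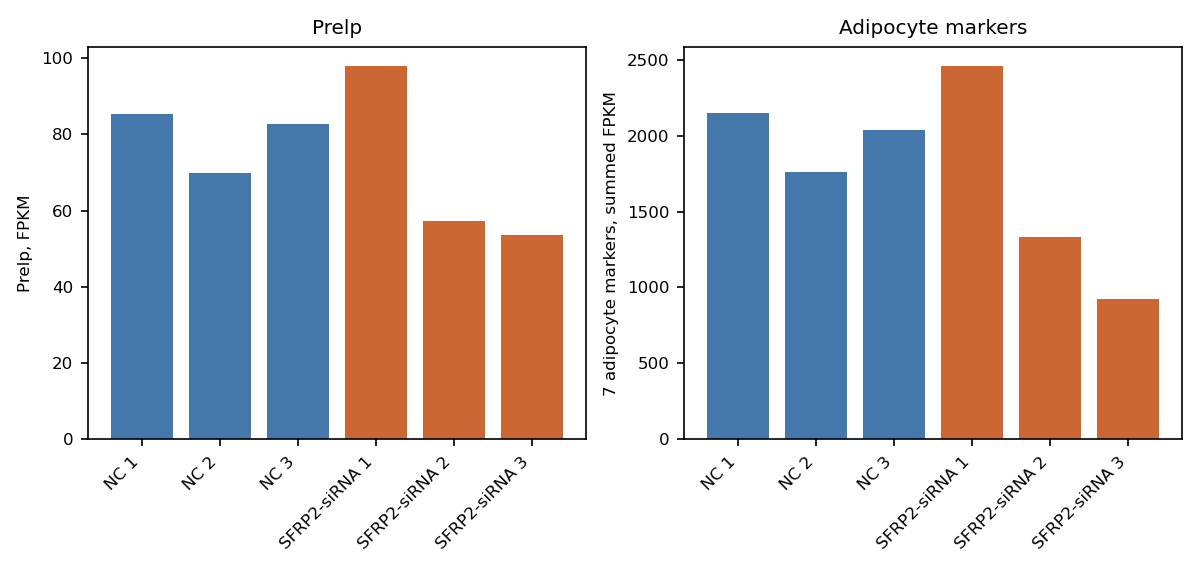
FPKM of Prelp (left) and summed FPKM of 7 adipocyte markers (right) in each library, on axes from 0. NC is blue and libraries labelled SFRP2-siRNA are orange, and SFRP2-siRNA 1 is the highest and SFRP2-siRNA 3 the lowest library in both panels. No single marker ranks all 6 libraries as Prelp does.

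Each of the other 8 members was set against Dcn in the same library, a ratio that depends on scaling only through the added 1. The log2 ratio of Prelp to Dcn, of FPKM + 1, was 0.23, -0.53 and -0.18 in NC 1, 2 and 3 and -0.66, -1.39 and -1.36 in those labelled SFRP2-siRNA 1, 2 and 3. The groups did not overlap, with means of -0.16 ± 0.38 and -1.14 ± 0.41 (SD, n = 3 each). The difference was -0.98, with an exact permutation p of 0.1 and 0.667 after adjustment over the 8 ratios. It stayed between -1.22 and -0.78 when each library was left out. For the other 7 ratios the groups overlapped. Differences ran from -0.33 for Bgn to 0.0088 for Vcan, and exact permutation p-values were at least 0.2. With a pseudocount of 0.1 the difference was -0.11 in place of -0.24 for Fmod and 0.13 for Vcan. Lum kept nearly the same ratio to Dcn, -0.39 ± 0.26 in NC and -0.40 ± 0.08 in those labelled SFRP2-siRNA (SD, n = 3 each). No ratio could pass the threshold in a design whose smallest p is 0.1.

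**Figure D4:**
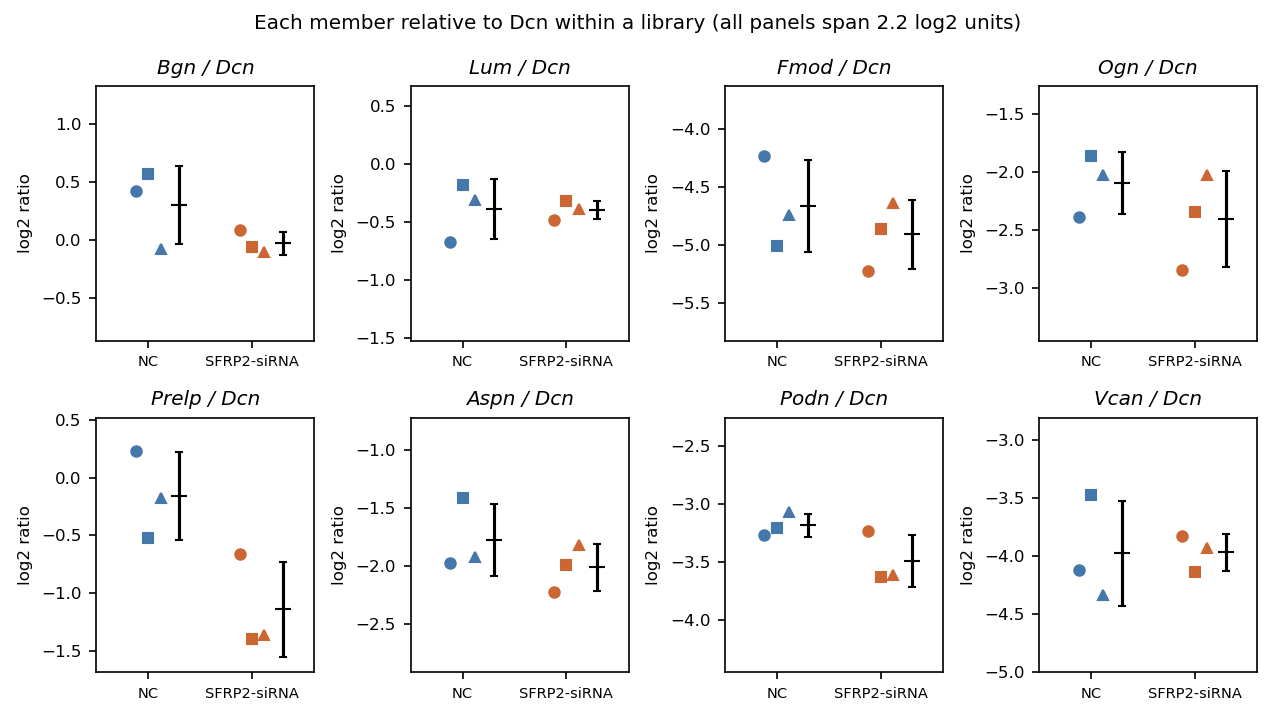
Log2 ratio of FPKM + 1 of each member to Dcn in the same library, in panels of equal height with the mean and SD of 3 libraries in black. Only the panel of Prelp has groups that do not overlap, from -0.53 to 0.23 in NC and from -1.39 to -0.66 in those labelled SFRP2-siRNA.

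Profiles over the 6 libraries were compared after centring each gene on its own mean, by the root mean square difference in log2 units. Dcn and Lum were each nearest to the other, at 0.16, against 0.40 and 0.47 for their own deviation from their means. Aspn and Ogn were likewise nearest to each other, at 0.17, as were Bgn and Vcan, at 0.24. Prelp was the farthest member from each of the other 8, at 0.43 to 0.68. Of the genes outside the list, Tpst1, which adds sulfate to tyrosines of secreted proteins, was nearest to the mean profile of the 9, at 0.023. Morc3, Hexa, Dnajc10 and Arap1 followed at 0.038 to 0.047. All 5 had log2 fold changes between 0.43 and 0.49 and an adjusted limma p of 0.518. These genes were picked for their likeness to the members, so their fold changes follow from that choice.

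Several members lie side by side in the RefSeq genome (GRCm38.p6), and their neighbours of the same family were read as well. Dcn and Lum are adjacent on chromosome 10, followed by Kera, the gene of the corneal protein keratocan, which had at most 0.10 FPKM in any library. On chromosome 13 Omd, the gene of the bone protein osteomodulin, stands between Aspn and Ogn. Omd had 1.65, 1.17 and 1.94 FPKM in NC and 0.83, 2.08 and 2.65 FPKM in those labelled SFRP2-siRNA, with overlap. Ecm2, on the other side of Aspn, had 2.14, 2.80 and 2.67 FPKM in NC against 2.82, 2.94 and 2.83 FPKM, groups that did not overlap but differed by 0.13 on the log2 scale (SE 0.12). Prelp and Fmod are adjacent on chromosome 1, with Optc on the other side of Prelp, and were unlike in profile, at 0.54. The next gene to Vcan, Hapln1, encodes a link protein that ties versican to hyaluronan and had at most 0.036 FPKM in any library. 

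Genes that act with the members were read from lists chosen by name. Of 11 other small leucine-rich proteoglycan genes, 6 were tested, 4 higher and 2 lower, with a median log2 fold change of 0.10. Among them Podnl1 had a log2 fold change of 0.19 (SE 0.16) and Tsku, a secreted Wnt and BMP modulator, -0.25 (SE 0.26). The median of all genes tested was 0.13.

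Hyaluronan and hyaluronan-binding genes were represented by 12 tested of 16, of which 8 were higher and 4 lower, with a median of 0.26. Has2, a hyaluronan synthase, had 1.73, 3.09 and 1.44 FPKM in NC and 6.21, 3.58 and 2.05 FPKM in those labelled SFRP2-siRNA, and the groups overlapped. Tnfaip6, whose product TSG-6 links proteins to hyaluronan, had a log2 fold change of 0.77 (SE 0.37). Ncan, the gene of neurocan, a proteoglycan of nervous tissue in the same family as versican, had 3.02, 3.01 and 2.11 FPKM in NC and 1.28, 0.92 and 0.59 FPKM in the other group. These groups did not overlap, and the log2 fold change was -0.95 (SE 0.18) with an adjusted limma p of 0.518. Ncan was named for the smallest p of this list, and 628 of all 16005 genes tested were lower without overlap.

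Other proteoglycan core genes had 10 higher and 6 lower of 16 tested of 20, with a median of 0.20. Sdc3, a syndecan, had 8.33, 19.8 and 10.9 FPKM in NC and 22.0, 21.8 and 20.8 FPKM in those labelled SFRP2-siRNA. Spock2, a testican, had a log2 fold change of 0.45 (SE 0.16). Cspg4, the pericyte proteoglycan NG2, had 6.11, 7.06 and 5.76 FPKM against 4.98, 4.31 and 4.66 FPKM, and a log2 fold change of -0.37 (SE 0.12). All 3 had groups without overlap and an adjusted limma p of 0.518, but they were named for the smallest p of this list. Of the 16 tested, 3 were higher and 1 lower without overlap. Over all 16005 genes tested, 2226 (13.9%) were higher and 628 lower without overlap.

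Genes that build and modify glycosaminoglycan chains were higher in 22 of 23 tested of 28, with a median of 0.30 and 9 higher without overlap, beside 71.8% and 13.9% of all genes. Pxylp1, a phosphatase that lets the linker of the chain be extended, had 1.82, 1.87 and 1.33 FPKM in NC and 2.54, 2.98 and 2.62 FPKM in those labelled SFRP2-siRNA. Chst14 and Dsel serve the making of dermatan sulfate, the chain type of decorin in skin, and Chpf the extension of chondroitin. Chst14 and Chpf had log2 fold changes of 0.35 (SE 0.14) and 0.36 (SE 0.14). With median-of-ratios scaling the median of this list was 0.17. By mean log2 value the 1 lower gene was Chst15, at -0.055, and Chst12 counted as higher at 0.00031 (SE 0.15).

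Proteases that cleave proteoglycans were higher in 12 of 13 genes, with a median of 0.55, beside 71.8% and 0.13 over all genes tested. Mmp3 had 22.6, 30.7 and 23.3 FPKM in NC and 98.9, 70.2 and 33.8 FPKM in those labelled SFRP2-siRNA, a log2 fold change of 1.26 (SE 0.38). Mmp2 and Mmp14 had 0.84 (SE 0.27) and 0.47 (SE 0.15), and the groups of these 3 did not overlap. These 3 were named for the smallest p of the list. In it 5 of 13 genes were higher without overlap, beside 13.9% of all genes. All 10 fibril and beaded collagen genes were higher, with a median of 0.65, and Col1a1, Col1a2 and Col6a2 had log2 fold changes of 0.90, 0.95 and 0.44. Receptors reported to bind soluble proteoglycans were higher in 8 of 8, with a median of 0.38, though Egfr was at 0.0082 (SE 0.21). Of these 8, Igf1r, Tlr4 and P2rx4 had log2 fold changes of 0.36 (SE 0.14), 0.66 (SE 0.26) and 0.41 (SE 0.20). The groups overlapped for Tlr4 and P2rx4. No gene of any list passed the adjusted threshold.

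**Figure D5:**
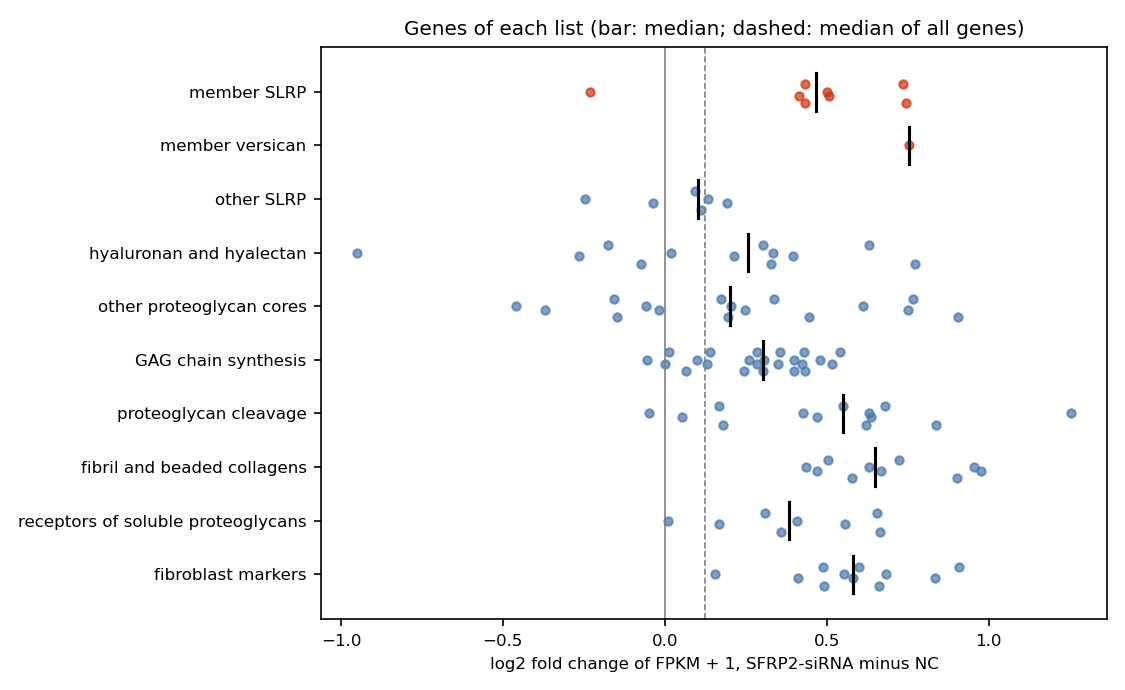
Log2 fold changes of FPKM + 1 of the tested genes in each list, libraries labelled SFRP2-siRNA minus NC, a point per gene, with the list median as a bar. The small leucine-rich proteoglycans of the report and versican are red, with medians of 0.47 and 0.76. These lie right of the median of all genes, 0.13, as do the medians of all other lists shown except other SLRP, at 0.10.

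Fibroblast markers were higher too. All 11, Pdgfra, Dpt, Pi16, Dpp4, Mfap5, Thy1, Fap, Fbn1, Twist2, Prrx1 and Clec3b, had positive log2 fold changes, with a median of 0.58, and 4 had groups without overlap. Over all genes tested, 71.8% were higher and 13.9% were higher without overlap. With median-of-ratios scaling the fibroblast median was 0.42, beside 0.0046 over all genes. No fibroblast marker was at 0 in any library, and summed levels were 225 to 416 FPKM in NC and 425 to 526 FPKM in those labelled SFRP2-siRNA. Relative to the mean of these markers in the same library, Dcn, Lum and Vcan had log2 fold changes of 0.17, 0.16 and 0.18 and Prelp was at -0.81, while the median of all genes was -0.45. On this scale 0 members and 0.069% of all genes were higher without overlap. More cells of a type and more RNA per cell cannot be told apart in bulk tissue. Macrophage markers were higher in 8 of 8, with sums of 588 to 909 and 968 to 1303 FPKM. The 5 Schwann cell markers reported here were higher in 5 of 5, 3 of them without overlap, with sums of 5.12 to 6.75 and 6.94 to 12.1 FPKM. Tenocyte markers, which mark tendon cells rich in Fmod, had sums of 26.4 to 53.1 and 42.7 to 49.7 FPKM, with Kera near 0. Most of that sum was Thbs4, with 21.5, 49.6 and 38.1 FPKM in NC and 38.1, 37.7 and 38.9 FPKM in the other group. The 3 tenocyte markers tested were all higher, with a median log2 fold change of 0.43 and 0 without overlap. Mural cell and endothelial sums overlapped between the groups. Skeletal muscle sums were 3408 to 6692 FPKM in NC and 4480 to 12569 FPKM in those labelled SFRP2-siRNA, and keratinocyte sums 4027 to 7037 and 3813 to 7020 FPKM. Their part in the proteoglycan values was not tested.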

How the data were processed

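Gene transcript levels of 6 wound libraries were read from the deposited table of FPKM values. Per the labels, the authors made paired-end mRNA libraries, and their processing notes name HISAT2, featureCounts and Subread. Versions, genome build and annotation were not given in the sources used here. Symbols came from a gene name table that matched 32582 of the 33184 identifiers. Reads behind a value were inferred with GENCODE vM21 exon lengths. Of values below 20 reads, 98.7% to 98.9% came within 0.02 of a whole number, and 63.2% to 65.3% of them were even.

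Groups followed the sample titles. The 16005 genes whose mean reached 0.5 FPKM were tested on log2(FPKM + 1) with limma 3.58.1 (intensity trend, two-sided, Benjamini-Hochberg over these genes) in R 4.3.3, after a test on simulated data. An exact permutation test, two-sided, was used for single values and ratios. The study's DESeq2 needs counts and was not run on the inferred reads, so the unlike number of genes called was not examined. Alternatives were another pseudocount, other filters and scalings, no trend, a replicate block, sample weights and leaving out each library. A scaling on fibroblast markers was added after the data had been seen. The members and lists were chosen with earlier results of these data known. Named were the members, up to 3 genes of smallest p in each pathway list, family neighbours, and the 5 genes nearest in profile. Chst12, Chst15, Dsel, Egfr and Hapln1 were named after their values were seen. A further Schwann cell marker is not reported here.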

Additional observations from a re-analysis of the deposited data

How the results depend on the processing

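No member passed the adjusted threshold under any alternative. Of 153 alternative fits of the members 148 kept their direction and 5 reversed. Other filters, no trend and the replicate block leave the fold change itself as it was, so those fits could not reverse. The 5 reversals were relative to fibroblast markers, Bgn to -0.16, Fmod to -0.077, Ogn to -0.15, Aspn to -0.071 and Podn to -0.15. That scaling lowered the log2 fold change of every gene by the same amount and took the median of all genes to -0.45. That 8 of 9 members stayed above it was therefore fixed in advance. With median-of-ratios scaling 2 members had groups without overlap and 2 an unadjusted p under 0.05, beside 438 of all genes. Quantile normalization also gave 2 and 2, beside 474. Rescaling without mitochondrial mRNA gave 420 genes, against 1075 as deposited. The cause was not tested.

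Over the fits that each left out a library, members without overlap numbered 4 to 7 (7 without NC 2, 6 without SFRP2-siRNA 1), beside 15.7% to 29.0% of all genes, and members at an unadjusted p under 0.05 numbered 1 (without SFRP2-siRNA 2) to 5 (without NC 2), with 2 without SFRP2-siRNA 3. Over all genes the latter count was 460 at the least (NC 1 left out), 1566 at the most (NC 2 left out) and 600 without SFRP2-siRNA 2. The ratio differences nearest 0 changed sign, Lum to Dcn from -0.15 to 0.093 and Vcan to Dcn from -0.17 to 0.26. Whether replicate numbers pair the libraries is not known. The deviations of libraries 1, 2 and 3 from their group means correlated between groups at -0.05, -0.15 and 0.38. Libraries of unlike numbers were not compared, so these values cannot decide it. With the replicate block 1255 genes were higher at an unadjusted p under 0.05 and Dcn had an adjusted limma p of 0.367. Depth did not limit the members, with at least 333 reads each, while Kera and Hapln1 were near 0.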

Other observations

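The genes nearest to Prelp in profile were looked up after its values had been seen. Mgll, a lipase that acts on monoacylglycerol in fat cells, was the nearest, at a root mean square difference of 0.045 log2 units over the 6 libraries. It had 93.6, 74.6 and 97.6 FPKM in NC and 110, 63.8 and 61.2 FPKM in those labelled SFRP2-siRNA. AC122442.1, Tdrp, Cmbl and Mgst2 followed at 0.048 to 0.078. These genes were picked for their likeness, so no test was made.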
